A study of Mus musculus with 9 samples.

Results

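The mouse genes named Zfp with a number in the range from Zfp800 to Zfp999 are zinc finger genes, chosen here by symbol alone and not by sequence or by expression. GENCODE M21 annotates 90 protein-coding genes with such a symbol, 82 of them had a row of reads in the deposited counts, and the 75 with 60 or more reads over the 9 libraries are described here, out of 37990 genes counted and 14465 tested in the series. Libraries from E14 mouse embryonic stem cells, kept in serum with LIF, were made from total RNA with a strand-specific kit and read as single reads of 50 bases. Knockdown cells carried a stable pLKO.1 lentiviral short hairpin against Fam60a (3 libraries) or against Sin3a (3 libraries), and the control cells carried a scrambled, non-targeting hairpin in the same vector (3 libraries). All 3 groups therefore share lentiviral transduction, puromycin selection and 3 rounds of propagation before harvest. The labels call the libraries of a group biological replicates of 1 cell line, so p-values measure the spread between transduced cultures of that line.

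Most genes of this kind encode a KRAB domain followed by an array of C2H2 zinc fingers. The fingers read DNA sequence, and the KRAB domain binds Trim28 (KAP1), which brings in the histone methyltransferase Setdb1 and HP1 proteins, so that the bound element, often a retrotransposon, is silenced. The genes themselves multiply by tandem duplication and sit in clusters of near-identical neighbours. Sin3a holds together a repressor complex that carries histone deacetylases, and Fam60a (current symbol Sinhcaf) is one of its subunits. The comparisons ask how mRNA levels differ in cells depleted of either protein.

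Of the 75 described genes, 67 carried a match to the core of the KRAB A box in a translated coding transcript. The genes without a match were Zfp800, Zfp821, Zfp827, Zfp830, Zfp839, Zfp865, Zfp956 and Zfp974. The number of C2H2 finger patterns per protein had a median of 11 and reached 22 in Zfp808, and 63 of the 75 proteins had 7 or more. Zfp839, Zfp935 and Zfp972 had 0. Zfp839 is thus a zinc finger gene by name, with neither pattern in its annotated protein.

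The genes lay in 8 clusters, each of 3 or more annotated members with at most 1 Mb between neighbours, which held 59 of the 90 annotated and 49 of the 75 described genes. The largest, on chromosome 4 (chr4:145510759-147848366, GRCm38), held 16 genes, and all 16 were described. A pair of clusters of 11 annotated members each followed, one on chromosome 2 (chr2:174643534-178078476), of which 4 were described, and the proximal cluster of chromosome 17 (chr17:21567008-22867134), of which 10 were described. The remaining clusters were on chromosome 8 (chr8:69209038-69791178, 6 genes described), chromosome 7 (chr7:42579783-43618285, 5 genes), chromosome 13 (chr13:62129886-62571199, 3 genes), distal on chromosome 17 (chr17:32765496-33005457, 3 genes) and on chromosome 9 (chr9:22188090-22307648, 2 genes). The chromosome 2 and chromosome 4 clusters are known from deletion experiments in mice as repressors of endogenous retroviruses.

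For 66 of the 75 genes a promoter window of 300 bases was given, from 250 bases before to 50 bases after a RefSeq transcription start (GRCm38.p6), and the start nearest to a GENCODE transcript start was taken. The letters CCAAT, on either strand, occurred in 50 of the 66 windows (75.8%), against 37.4% of all 32817 RefSeq windows of the same length. At least 2 such matches were found in 22 windows (33.3%), against 11.7% of all windows. The letters TATAAA were found in 2 of the 66 windows (3.03%, Zfp827 and Zfp871), against 13.6% of all windows. GGGCGG was found in 39.4%, against 35.6% of all windows, and the windows held a median of 8.5 CG dinucleotides, against 7. Each motif was searched on both strands, and no motif holds another. The 2 sets are unlike, because each described gene gave 1 window and the full set holds every distinct RefSeq window, also further starts of a gene. Windows of duplicated neighbours may also resemble each other, so the 66 are not independent. The 150 bases upstream of the start are printed below for 3 genes of the chromosome 8 cluster. These are Zfp869 with the largest fold changes of the cluster, Zfp866 with a call in Sin3a knockdown and Zfp868 with the highest level. Also printed are 2 further genes whose Fam60a knockdown libraries separated from the controls (Zfp867 and Zfp820). Capitals mark CCAAT on either strand, and each sequence runs 5′ to 3′ on the strand of its gene, which is the minus strand for all 5.
Zfp869: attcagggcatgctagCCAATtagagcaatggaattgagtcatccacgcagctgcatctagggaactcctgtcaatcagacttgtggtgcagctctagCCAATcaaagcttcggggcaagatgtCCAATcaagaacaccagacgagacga
Zfp868: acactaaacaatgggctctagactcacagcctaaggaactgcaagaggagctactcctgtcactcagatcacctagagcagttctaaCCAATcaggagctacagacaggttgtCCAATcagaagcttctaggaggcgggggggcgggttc
Zfp866: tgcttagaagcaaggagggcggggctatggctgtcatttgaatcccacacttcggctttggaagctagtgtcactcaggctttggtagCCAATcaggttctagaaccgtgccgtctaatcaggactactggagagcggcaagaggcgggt
Zfp867: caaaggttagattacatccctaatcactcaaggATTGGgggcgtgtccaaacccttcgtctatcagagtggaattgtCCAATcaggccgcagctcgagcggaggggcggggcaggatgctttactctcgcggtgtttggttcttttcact
Zfp820: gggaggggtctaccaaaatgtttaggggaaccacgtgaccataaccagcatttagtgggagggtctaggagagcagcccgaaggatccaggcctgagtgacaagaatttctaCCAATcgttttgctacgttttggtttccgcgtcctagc
These stretches lie at chr8:69716903-69717052, chr8:69625549-69625698, chr8:69774912-69775061, chr11:59472475-59472624 and chr17:21845760-21845909. CCAAT stood 3 times in the stretch of Zfp869, at 134, 52 and 26 bases before the start, and 2 times in that of Zfp868, at 63 and 37 bases. The stretch of Zfp866 held it 1 time, at 62 bases. The RefSeq start of Zfp869 lay 6178 bases from the nearest GENCODE transcript start, while the other 4 starts coincided with a GENCODE start. The stretch of Zfp866 lies inside its annotated gene (chr8:69761326-69791178), before an internal start and not at the 5′ end of the gene. The windows used for Zfp869 and Zfp866 therefore depend on the annotation. A match is a run of letters and was not measured as a binding site.

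In control cells the genes were expressed at low levels. Read counts scaled to library size by TMM (CPM) were divided by the exon length in kilobases, so that genes can be compared. On this scale the 75 genes had a median level of 5.83 in the controls, against 11.4 for the 13440 tested protein-coding genes, and 60 of the 75 lay below that median. Zfp830, a gene without a KRAB match that is known for a role in pre-mRNA splicing, had the highest level with 43.1 ± 2.37 CPM per kilobase (SD, n = 3). Zfp961 followed with 32.6 ± 2.17, and the chromosome 4 genes Zfp990, Zfp985 and Zfp979 with 31.5 ± 1.77, 27.8 ± 0.67 and 27.8 ± 1.34. Zfp961 and Zfp990 did not differ beyond their spread, nor did Zfp985 and Zfp979. Zfp982, a chromosome 4 gene described as supporting the stem cell state, stood at 17.7 ± 0.52, and Zfp819, which is linked to silencing of retroelements in pluripotent cells, at 15.7 ± 3.02. Zfp809, which recognises the primer binding site of murine leukaemia retroviruses and recruits Trim28 there, stood at 13.8 ± 0.96, and Zfp932, which represses a class of endogenous retroviruses, at 5.83 ± 0.30. The lowest levels were 0.75 ± 0.15 for Zfp934, 0.56 ± 0.12 for Zfp987, 0.47 ± 0.15 for Zfp983 and 0.18 ± 0.07 for Zfp964.

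**Figure D1:**
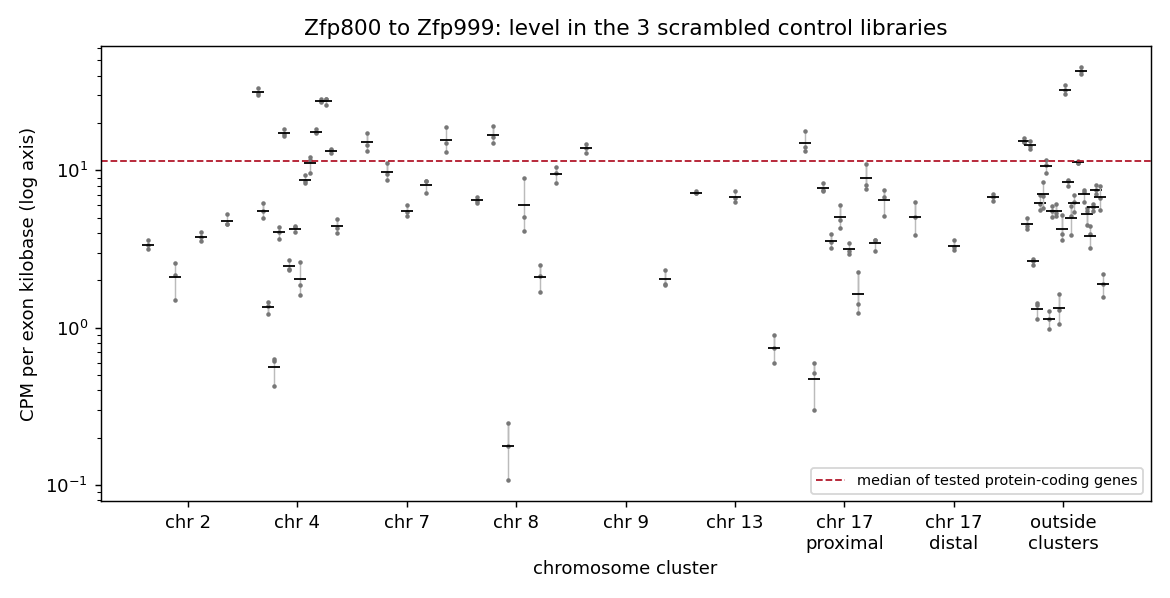
Level of each of the 75 genes in the scrambled control libraries, in CPM per exon kilobase on a log axis, with genes in chromosome order within each cluster; points are the 3 libraries, the tick is their mean and the dashed line is the median of the tested protein-coding genes at 11.4. The chromosome 4 cluster spans the widest set of high levels, up to 31.5, and the single lowest gene at 0.18 is Zfp964 on chromosome 8.

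Within a cluster the levels differed by large factors between neighbours. In the chromosome 4 cluster they ran from 0.56 (Zfp987) to 31.5 (Zfp990) CPM per kilobase, with a median of 7.14. In the chromosome 8 cluster they ran from 0.18 (Zfp964) to 16.8 (Zfp868), although Zfp868 and Zfp964 lie 28.9 kb apart. The chromosome 2 cluster had the lowest median of the larger clusters, 3.58, and its 4 described genes lay between 2.09 (Zfp972) and 4.79 (Zfp931). The other 7 annotated genes of that cluster were silent, nearly silent or not analysed here: Zfp965, Zfp966 and Zfp968, which share 90.0% to 96.3% of their windows with other genes, had 0 reads over all 9 libraries, Zfp831 had 2 and Zfp973 had 6. Levels of close copies are uncertain, because reads of 50 bases that fall in shared sequence may be dropped or placed in another copy. Of the 50-base windows in the annotated transcripts of a chromosome 4 gene, a median of 61.2% also occurred in another gene (from 1.83% in Zfp933 to 89% in Zfp987), and in the chromosome 2 cluster the median was 50.4%. In all, 12 of the 75 genes shared over 50% of their windows and 16 shared under 1%. Zfp935 shared 100% of its windows with an overlapping gene model on the same strand, and its counts are not its own alone.

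The read minimum fell in a sparse stretch of the distribution. Just inside it, Zfp964 had 3, 9 and 10 reads in Fam60a knockdown, 10, 13 and 3 in Sin3a knockdown and 5, 13 and 9 in control libraries. Zfp972 and Zfp986 had 78 and 86 reads in all. Just outside it, Zfp872 had 33 reads in all, with 9 in Fam60a knockdown replicate 3 and 12 in control replicate 3, and Zfp973 and Zfp831 had 6 and 2. Zfp957 had 1 read, and 8 annotated genes (Zfp850, Zfp853, Zfp870, Zfp953, Zfp960, Zfp967, Zfp969 and Zfp994) are not analysed here. All 75 described genes also passed the low-count filter of the test, which used the size of the groups and not their contrast.

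Library totals ran from 2607872 reads in Sin3a knockdown replicate 3, with 5511453 the next lowest, to 7674887. Of the targeted genes, Sinhcaf stood at 42.5% of control in Fam60a knockdown (log2 fold change -1.23 ± 0.23, SE, edgeR adjusted p = 0.028), and Sin3a at 43.8% of control in Sin3a knockdown (-1.19 ± 0.11, adjusted p = 0.00149). In Fam60a knockdown Sin3a stood at 75.6% of control (-0.40 ± 0.11, adjusted p = 0.096), with every library below all controls. Sinhcaf stood at 116% of control in Sin3a knockdown (0.20 ± 0.22, adjusted p = 0.609). All 10 markers of undifferentiated embryonic stem cells were detected in every library. Their median log2 fold change was -0.11 in Fam60a knockdown and -0.06 in Sin3a knockdown. With 9 libraries neither edgeR nor DESeq2 called any of them against control (edgeR called 2.92% and 10.2% of all genes). Without Sin3a knockdown replicate 3, edgeR called Nanog alone against control, lower in Fam60a knockdown (-0.33 ± 0.09, adjusted p = 0.032). In that fit 7.77% of all genes fell there. All 10 primitive endoderm markers were detected too, with summed levels of 2675 to 3796 CPM in Fam60a knockdown, 3029 to 6444 CPM in Sin3a knockdown and 1215 to 2912 CPM in control libraries, and the highest value of each group was in replicate 3. Their median log2 fold change was 0.97 in Fam60a knockdown and 1.23 in Sin3a knockdown. With 9 libraries edgeR called Gata6 alone, which rose in Sin3a knockdown (1.29 ± 0.30, adjusted p = 0.029). With the replicate number as a block, 4 of the 10 rose in Fam60a knockdown and 9 of the 10 in Sin3a knockdown (3.41% and 6.33% of all genes did), and DESeq2 called 2 and 7 higher (3.8% and 6.88% of all genes). Of 12 markers of the two-cell-like state 6 were found, and edgeR called none with 9 libraries. In Sin3a knockdown their median log2 fold change was -1.09, and DESeq2 called 3 of the 6 lower, the block 4 and edgeR without Sin3a knockdown replicate 3 called 3 (8.08%, 8.63% and 13.5% of all genes). Of 8 fibroblast markers 4 were tested, and Thy1 fell in Sin3a knockdown (-1.80 ± 0.29, edgeR adjusted p = 0.0082), where DESeq2 and the block each called 2 lower. The markers did not move together there. Col1a2 had a positive log2 fold change (1.61 ± 0.91, adjusted p = 0.307). Col1a1 (-1.99 ± 1.10, adjusted p = 0.293) and Pdgfrb (-1.28 ± 0.37, adjusted p = 0.059) had negative ones. In bulk RNA, a change in the number of cells of a type and a change in RNA per cell cannot be told apart, and the part of these markers in the results below was not tested.

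One library set the Sin3a knockdown values of most zinc finger genes. The 75 genes together took 0.0993% of the reads of Sin3a knockdown replicate 3, against 0.205% and 0.216% in the other Sin3a knockdown libraries, 0.213%, 0.230% and 0.215% in Fam60a knockdown and 0.212%, 0.220% and 0.210% in control libraries. In that library 64 of the 75 genes were below both other Sin3a knockdown libraries, 10 were above both and 1 lay between. The same count was not made over all tested genes, whose deviations in that library are given by GC content below. Relative to replicates 1 and 2, the log2 CPM in replicate 3 was changed by a median of -1.33, with a range of -6.62 to 1.16. The library was also the shallowest, and 31 of the 75 genes had under 10 reads in it. Zfp936, on chromosome 7, had 197, 255 and 201 reads in Fam60a knockdown, 200, 180 and 0 in Sin3a knockdown and 171, 194 and 158 in control libraries. Counting the 0 as 3 reads, its CPM in replicates 1 and 2 was at least 26.2-fold higher than in replicate 3. Zfp970 and Zfp971 on chromosome 2 and Zfp987 on chromosome 4 also had 0 reads there.

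The lower values went with the base composition of the genes. Exon GC content had a median of 39.6% over the 75 genes, against 50.2% over the tested protein-coding genes, and 72 of the 75 lay below that of the protein-coding genes. Across the 75 genes, which share the same libraries and whose counts are not independent, the log2 deviation of replicate 3 correlated with GC content with a Pearson r of 0.600 and a Spearman rho of 0.620. The 25 genes under 38% GC had a median deviation of -2.24, against -1.52 for 260 other tested genes in that range. Between 38 and 42% GC the medians were -1.69 for 25 genes and -1.09 for 1270 others, between 42 and 46% they were -0.53 for 15 genes and -0.60 for 2426 others, and from 46% on they were 0.29 for 10 genes and 0.24 for 10095 others. Genes outside the family therefore deviated in the same direction in each of these 4 ranges. Which property of the library lies behind this was not tested, and the counts, cluster medians and main genes of the Sin3a knockdown are given below with and without replicate 3.

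**Figure D2:**
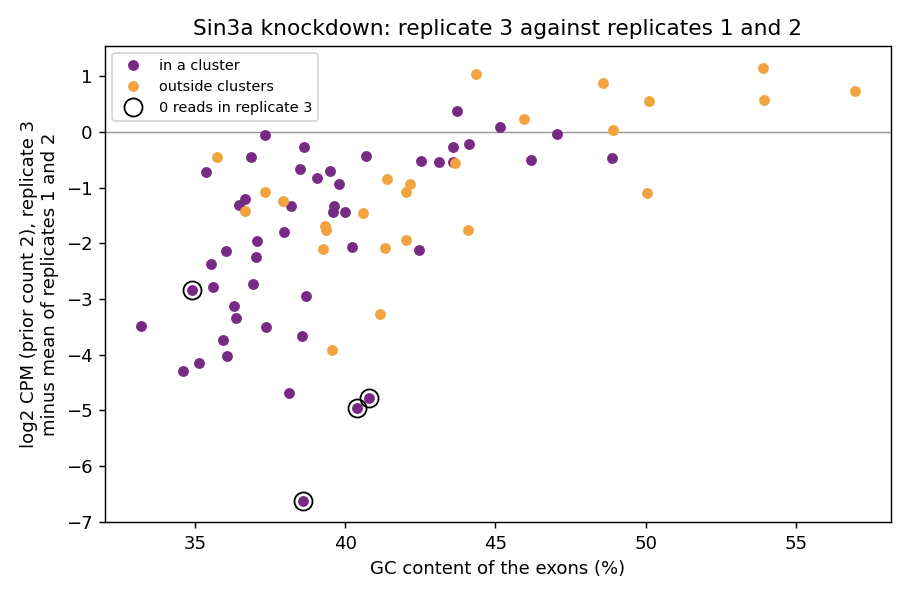
Log2 CPM (prior count 2) of each of the 75 genes in Sin3a knockdown replicate 3 minus the mean of replicates 1 and 2, against exon GC content in percent; purple points are genes in a chromosome cluster, orange points genes outside clusters and circles the 4 genes with 0 reads in replicate 3. Every gene under 42% GC lies below 0, and the 10 genes above 0 have a GC content of 43.7% or more.

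In Fam60a knockdown the fold changes of the family were centred near 0. None of the 75 genes passed the test against control (adjusted p under 0.05 over all genes, edgeR's quasi-likelihood test on 9 libraries), where 2.92% of all tested genes did (1.49% higher and 1.44% lower), and 1 gene, Zfp869, had an unadjusted p under 0.05 (15.7% of all tested genes did). DESeq2 called 1 gene, Zfp869, higher, where it called 7.18% of all genes (3.8% higher and 3.38% lower). The log2 fold changes had a median of 0.01, against -0.02 for all genes, and ranged from -0.61 to 1.39, with 38 above 0 and 37 below. Of the 75 genes, 69 lay within 0.5 of 0 (76.2% of all genes did). The median standard error was 0.37 for the family and 0.26 for all genes, and the model shares its spread over all groups, Sin3a knockdown replicate 3 included. With that library left out, the median standard error was 0.16 and 3 genes rose, Zfp869, Zfp867 and Zfp820, none fell, and 16.9% of all genes were called (9.16% higher and 7.77% lower). With the replicate number as a block, 1 gene (Zfp869) was called, where 6.13% of all genes were (3.41% higher and 2.72% lower). With the block and without that library 14 rose (Zfp800, Zfp809, Zfp820, Zfp839, Zfp867, Zfp869, Zfp882, Zfp936, Zfp948, Zfp952, Zfp961, Zfp977, Zfp985 and Zfp995) and 5 fell (Zfp871, Zfp930, Zfp940, Zfp981 and Zfp984), where 39.6% of all genes were called (21.1% higher and 18.6% lower). The groups did not overlap for 11 genes that were higher in all 3 Fam60a knockdown libraries (14.7%, against 16.2% of all genes) and 10 that were lower (13.3%, against 18.2%).

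Zfp869 showed the largest difference. It is a KRAB zinc finger gene with 12 finger patterns in the chromosome 8 cluster (chr8:69706332-69710724). It had 153, 169 and 198 reads in Fam60a knockdown, 124, 92 and 58 in Sin3a knockdown and 40, 56 and 96 in control libraries. DESeq2 called it in both comparisons. In CPM the values were 23.1, 21.7 and 31.3 in Fam60a knockdown, 18.9, 17.1 and 23.6 in Sin3a knockdown and 6.52, 8.10 and 14.3 in control. Every knockdown library lay above every control library, Sin3a knockdown replicate 3 included, and replicate 3 was the highest of each group. Against control the log2 fold change was 1.39 ± 0.32 in Fam60a knockdown (adjusted p = 0.056) and 1.03 ± 0.32 in Sin3a knockdown (adjusted p = 0.078), so that both missed the threshold with 9 libraries. With the replicate number as a block, both passed it (1.43 ± 0.21, adjusted p = 0.018, and 1.09 ± 0.21, adjusted p = 0.018). Without control replicate 3, its highest control, they were 1.82 (adjusted p = 0.036) and 1.47 (adjusted p = 0.034). Without Sin3a knockdown replicate 3 they were 1.40 ± 0.29 (adjusted p = 0.012) and 0.90 ± 0.32 (adjusted p = 0.069). Both comparisons use the same 3 control libraries, so they are not independent. Of its 50-base windows 9.34% occurred in another gene.

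Zfp867, a KRAB gene on chromosome 11 outside the clusters (chr11:59461197-59472474), had 36.6, 35.3 and 31.8 CPM in Fam60a knockdown, 26.2, 28.6 and 6.91 CPM in Sin3a knockdown and 17.4, 20.8 and 18.3 CPM in control libraries. The Fam60a knockdown and control libraries did not overlap, and among the Sin3a knockdown libraries replicates 1 and 2 were above the controls and replicate 3 below them. The log2 fold change in Fam60a knockdown was 0.87 ± 0.40 (edgeR adjusted p = 0.342), and 0.88 ± 0.12 without Sin3a knockdown replicate 3 (adjusted p = 0.0023), a library that is in neither arm of that comparison. In Sin3a knockdown it was 0.16 ± 0.40 (adjusted p = 0.831) with replicate 3 and 0.54 ± 0.14 (adjusted p = 0.022) without it. None of the 50-base windows of Zfp867 occurred in another gene.

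Zfp820, a KRAB gene of the proximal chromosome 17 cluster (chr17:21816885-21845772), had 41.7, 54.0 and 43.2 CPM in Fam60a knockdown, 37.0, 43.5 and 3.66 CPM in Sin3a knockdown and 28.0, 30.8 and 27.6 CPM in control libraries. It showed the same order, with replicate 3 of the Sin3a knockdown (9 reads) far below all other libraries. Its log2 fold change in Fam60a knockdown was 0.69 ± 0.58 (edgeR adjusted p = 0.722), and 0.70 ± 0.13 without that library (adjusted p = 0.0075). In Sin3a knockdown it was 0.00 ± 0.58 (adjusted p = 0.999), and 0.48 ± 0.14 without that library (adjusted p = 0.038). Zfp867 and Zfp820 were singled out after their values were seen, as were Zfp865 and Zfp839 below.

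**Figure D3:**
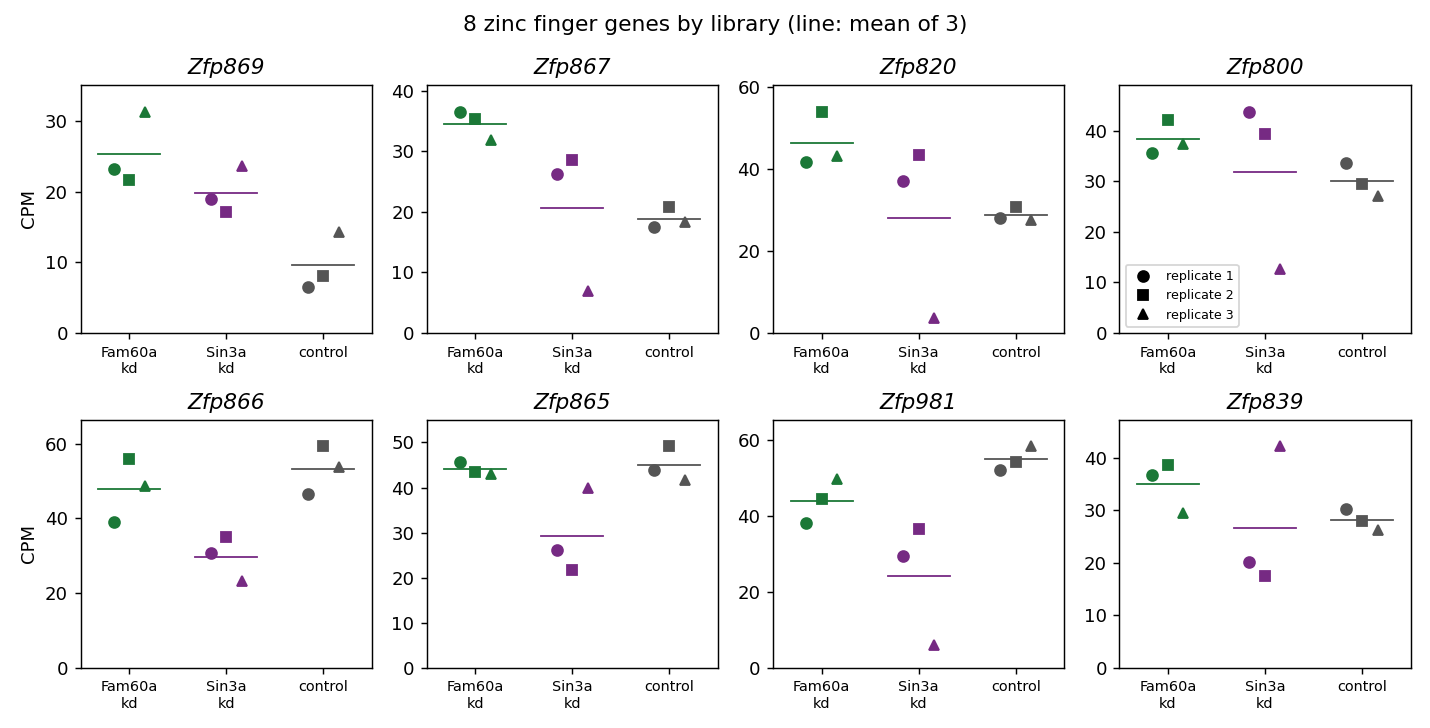
CPM in each library for 8 zinc finger genes, with Fam60a knockdown in green, Sin3a knockdown in purple and scrambled control in grey; circles, squares and triangles are replicates 1, 2 and 3, lines are group means and every axis starts at 0. Sin3a knockdown replicate 3 (purple triangle) lies below its group for Zfp867, Zfp820, Zfp800 and Zfp981 and above it for Zfp865 and Zfp839, while Zfp869 is higher in all 6 knockdown libraries than in the 3 controls.

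In Sin3a knockdown, 1 of the 75 genes was called against control with all 9 libraries, Zfp866, which fell, where 10.2% of all tested genes were called (3.91% higher and 6.28% lower). An unadjusted p under 0.05 was reached by 6 genes (25.9% of all tested genes), Zfp869 and Zfp954 with positive and Zfp866, Zfp865, Zfp981 and Zfp992 with negative fold changes. DESeq2 called 2 genes higher (Zfp869 and Zfp954) and 3 lower (Zfp865, Zfp866 and Zfp992), where it called 6.88% of all genes higher and 8.08% lower. The median log2 fold change was -0.27, against -0.01 for all genes, with 56 of 75 below 0. Without replicate 3 the median was 0.03, with 42 above 0 and 33 below, and 7 genes passed the test, 3 higher (Zfp800, Zfp820 and Zfp867) and 4 lower (Zfp839, Zfp865, Zfp866 and Zfp981), where 24.5% of all genes were called (11% higher and 13.5% lower). With the replicate number as a block and 9 libraries, 2 genes were called, Zfp869 higher and Zfp866 lower (15% of all genes, 6.33% higher and 8.63% lower). The block without that library gave 11 higher calls (Zfp800, Zfp820, Zfp867, Zfp869, Zfp948, Zfp954, Zfp961, Zfp977, Zfp983, Zfp985 and Zfp995) and 10 lower calls (Zfp827, Zfp830, Zfp839, Zfp865, Zfp866, Zfp940, Zfp956, Zfp976, Zfp981 and Zfp992) (47.3% of all genes, 22.9% higher and 24.4% lower). The family's lower median in Sin3a knockdown thus came with 1 library. With 9 libraries and a correction for exon GC content the median was -0.13, against 0.03 for all genes, with 50 of 75 below 0. That fit called 4 of the 75 genes lower and 0 higher, and 2118 of all genes (969 higher and 1149 lower). All 3 Sin3a knockdown libraries lay above all controls for Zfp869, Zfp949 and Zfp954 (4% of the 75 genes, against 14.7% of all genes) and below them for 12 genes (16% against 18.5%).

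Zfp866, a KRAB gene with 12 finger patterns at the end of the chromosome 8 cluster (chr8:69761326-69791178), had 39.0, 55.9 and 48.5 CPM in Fam60a knockdown, 30.8, 34.9 and 23.2 CPM in Sin3a knockdown and 46.4, 59.3 and 53.6 CPM in control libraries. All 3 Sin3a knockdown libraries lay below all libraries of both other groups, while the Fam60a knockdown and control libraries overlapped. It fell by 0.83 ± 0.21 on the log2 scale in Sin3a knockdown (edgeR adjusted p = 0.036), and by 0.69 ± 0.17 without replicate 3 (adjusted p = 0.018). The log2 fold change in Fam60a knockdown was -0.15 ± 0.20 (adjusted p = 0.907), and the difference between the knockdowns did not pass the test (0.68 ± 0.21, adjusted p = 0.12). The call in Sin3a knockdown was held only narrowly: leaving out any 1 of the other 8 libraries took the adjusted p to between 0.0501 and 0.143, with fold changes of -0.92 to -0.72. Leaving out control replicate 2 gave the highest of these p-values. Zfp866 shared 6.92% of its windows with other genes, and 7.52% of its exons overlapped another gene on the same strand.

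The chromosome 8 cluster thus held neighbours with opposite values in Sin3a knockdown. Zfp869 and Zfp866 lie 50.6 kb apart on the same strand, with Zfp963 between them, 40.8% of whose exons overlap another gene on the same strand. Zfp963 had log2 fold changes of 0.36 ± 0.30 in Fam60a knockdown and -0.32 ± 0.31 in Sin3a knockdown (adjusted p = 0.703 and 0.555), and -0.18 ± 0.30 in Sin3a knockdown without replicate 3. Zfp868, on the other side, had 40.3, 47.1 and 46.5 CPM in Fam60a knockdown, 39.6, 44.4 and 34.9 CPM in Sin3a knockdown and 43.0, 55.2 and 47.4 CPM in control libraries. Its groups overlapped. The log2 fold change was -0.12 ± 0.16 in Fam60a knockdown (edgeR adjusted p = 0.907) and -0.29 ± 0.16 in Sin3a knockdown (adjusted p = 0.309), or -0.21 ± 0.14 without replicate 3. The promoter stretches of Zfp869, Zfp868 and Zfp866 are printed above, and a relation of their CCAAT matches to these values was not tested.

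Zfp981, of the chromosome 4 cluster (chr4:146502027-146539395), had 38.2, 44.4 and 49.6 CPM in Fam60a knockdown, 29.6, 36.6 and 6.09 CPM in Sin3a knockdown and 52.1, 54.2 and 58.4 CPM in control libraries. Both knockdowns lay below all controls. Its log2 fold change in Sin3a knockdown was -1.15 ± 0.46 with 9 libraries (edgeR adjusted p = 0.152), the lowest of the family, and -0.73 ± 0.14 without replicate 3 (adjusted p = 0.0073). In Fam60a knockdown it was -0.32 ± 0.45 (adjusted p = 0.915) and -0.31 ± 0.12 without that library (adjusted p = 0.128). Zfp981 shared 40.0% of its windows with other genes, so its counts may hold reads of close copies.

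Zfp865 and Zfp839 are 2 of the genes without a KRAB match and have a high GC content, 57.0% and 53.9%. Zfp865 (chr7:5020376-5036768) had 45.6, 43.4 and 43.0 CPM in Fam60a knockdown, 26.2, 21.7 and 39.8 CPM in Sin3a knockdown and 44.0, 49.2 and 41.7 CPM in control libraries. All 3 Sin3a knockdown libraries were below both other groups, with replicate 3 nearest to them. The log2 fold change against control was -0.64 ± 0.22 with replicate 3 (edgeR adjusted p = 0.105) and -0.90 ± 0.13 without it (adjusted p = 0.0018). Zfp865 shared 26.8% of its windows with other genes, and 15.9% of its exons overlapped other genes on the same strand. Its counts may therefore hold reads of other genes. Zfp839 (chr12:110850253-110869996) had 36.7, 38.6 and 29.6 CPM in Fam60a knockdown, 20.1, 17.5 and 42.2 CPM in Sin3a knockdown and 30.3, 28.0 and 26.4 CPM in control libraries. Here replicate 3 was the highest of all 9 libraries and replicates 1 and 2 the lowest. Its log2 fold change was -0.11 ± 0.32 with replicate 3 (adjusted p = 0.848) and -0.58 ± 0.16 without it (adjusted p = 0.027).

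Zfp800, a gene without a KRAB match that is known for a role in pancreas development (chr6:28239927-28398005), had 35.6, 42.1 and 37.3 CPM in Fam60a knockdown, 43.8, 39.4 and 12.6 CPM in Sin3a knockdown and 33.6, 29.5 and 27.1 CPM in control libraries. All knockdown libraries but Sin3a knockdown replicate 3 lay above the controls. The log2 fold change in Sin3a knockdown was 0.11 ± 0.37 (edgeR adjusted p = 0.873) and 0.47 ± 0.13 without that library (adjusted p = 0.030). In Fam60a knockdown it was 0.35 ± 0.37 (adjusted p = 0.820) and 0.37 ± 0.12 without it (adjusted p = 0.066).

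Among the genes with known roles in silencing retroelements or in stem cells, none was called against control by edgeR or DESeq2 with 9 libraries. Zfp809 had 42.7, 45.2 and 53.4 CPM in Fam60a knockdown, 44.5, 43.1 and 46.7 CPM in Sin3a knockdown and 38, 41.1 and 43.7 CPM in control libraries. Its groups overlapped, with a log2 fold change of 0.20 ± 0.15 in Fam60a knockdown (edgeR adjusted p = 0.632) and 0.13 ± 0.15 in Sin3a knockdown (adjusted p = 0.617), or 0.10 ± 0.13 without replicate 3. Zfp982 had log2 fold changes of 0.06 ± 0.19 in Fam60a knockdown and -0.09 ± 0.19 in Sin3a knockdown, or -0.0068 ± 0.16 without replicate 3. Zfp819 had -0.18 ± 0.20 and -0.34 ± 0.20, or -0.20 ± 0.16 in Sin3a knockdown without replicate 3. Zfp932 had 0.11 ± 0.29 and -0.38 ± 0.30, and -0.13 ± 0.19 in Sin3a knockdown without replicate 3. Zfp830 had 72.5, 61.0 and 70.0 CPM in Fam60a knockdown, 61.6, 55.2 and 107 CPM in Sin3a knockdown and 72.7, 65.2 and 67.9 CPM in control libraries, and it was among the 10 genes that were highest of their group in replicate 3. Zfp827, whose human counterpart acts at telomeres, had -0.19 ± 0.29 and -0.44 ± 0.29, or -0.17 ± 0.18 in Sin3a knockdown without replicate 3. With the replicate block and without that library, Zfp809 rose in Fam60a knockdown (0.21 ± 0.07, edgeR adjusted p = 0.040), and Zfp830 (-0.22 ± 0.07, adjusted p = 0.022) and Zfp827 (-0.29 ± 0.10, adjusted p = 0.029) fell in Sin3a knockdown.

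By cluster, the Fam60a knockdown medians ran from -0.42 in the 3 genes of the distal chromosome 17 cluster to 0.20 on chromosome 7, and the Sin3a knockdown medians moved with replicate 3. In the chromosome 4 cluster, all 16 genes had a negative log2 fold change in Sin3a knockdown with 9 libraries (median -0.37), and 8 were above and 8 below 0 without replicate 3 (median 0.01). None of the 16 was called with 9 libraries, and Zfp981 was called without replicate 3. The summed level of the 16 genes was 506, 520 and 555 CPM in Fam60a knockdown, 508, 582 and 121 CPM in Sin3a knockdown and 534, 547 and 555 CPM in control libraries. Apart from replicate 3 of the Sin3a knockdown, the libraries of the 3 groups overlapped. In Fam60a knockdown this cluster had a median of -0.10, with 5 above 0 and 11 below. Zfp990, its most abundant gene, had 103, 104 and 109 CPM in Fam60a knockdown, 106, 118 and 15.8 CPM in Sin3a knockdown and 108, 106 and 117 CPM in control libraries.

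In the proximal chromosome 17 cluster of 10 genes, the median was 0.08 in Fam60a knockdown and -0.16 in Sin3a knockdown, or 0.13 without replicate 3. Besides Zfp820, Zfp983 had the largest values there, 0.80 ± 0.45 in Fam60a knockdown and 0.81 ± 0.46 in Sin3a knockdown (edgeR adjusted p = 0.474 and 0.311), and 1.02 ± 0.45 in Sin3a knockdown without replicate 3 (adjusted p = 0.128). These rest on 13, 40 and 23 reads in Fam60a knockdown, 27, 23 and 5 in Sin3a knockdown and 8, 18 and 15 in control libraries, and the groups overlap. Zfp948, the most abundant gene of that cluster, had 0.23 ± 0.19 and 0.00 ± 0.19, or 0.12 ± 0.16 in Sin3a knockdown without replicate 3. With the block and without that library, Zfp948 rose in both knockdowns (0.24 ± 0.07, edgeR adjusted p = 0.019, and 0.24 ± 0.09, adjusted p = 0.040) and Zfp983 rose in Sin3a knockdown (1.11 ± 0.37, adjusted p = 0.026). The 4 chromosome 2 genes had a summed level of 25.5, 32.5 and 25.6 CPM in Fam60a knockdown, 28.4, 36.8 and 2.03 CPM in Sin3a knockdown and 26.2, 28.9 and 29.6 CPM in control libraries. That cluster lay furthest below its group in replicate 3, with a median deviation of -4.13.

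In the chromosome 7 cluster of 5 genes the medians were 0.20 in Fam60a knockdown and -0.34 in Sin3a knockdown, or -0.0017 without replicate 3. Zfp977 had 25.7, 30.8 and 29.7 CPM in Fam60a knockdown, 25.9, 29.0 and 16.7 CPM in Sin3a knockdown and 20.7, 24.7 and 19.1 CPM in control libraries, with Fam60a knockdown above control in every library and a log2 fold change of 0.42 ± 0.23 (edgeR adjusted p = 0.463). Its neighbour Zfp976 had 41.7, 51.1 and 51.2 CPM in Fam60a knockdown, 33.4, 38.8 and 10.2 CPM in Sin3a knockdown and 43.3, 55.7 and 47.2 CPM in control libraries. All 3 Sin3a knockdown libraries of Zfp976 were below the other groups, with a log2 fold change of -0.80 ± 0.38 (adjusted p = 0.227), or -0.43 ± 0.15 without replicate 3 (adjusted p = 0.062). In the distal chromosome 17 cluster, Zfp871 had log2 fold changes of -0.49 ± 0.37 in Fam60a knockdown and -0.16 ± 0.37 in Sin3a knockdown, Zfp811 had -0.42 ± 0.46 and -0.41 ± 0.46, and Zfp952 had 0.26 ± 0.21 and -0.11 ± 0.21. Without replicate 3 the Sin3a knockdown values of these 3 genes were 0.16 ± 0.24, -0.02 ± 0.25 and 0.03 ± 0.15. In the chromosome 13 cluster Zfp808, the gene with the most fingers, had -0.07 ± 0.55 and -0.45 ± 0.55, and 0.02 ± 0.14 in Sin3a knockdown without replicate 3. None of these chromosome 7, 17 and 13 genes was called by edgeR or DESeq2 with 9 libraries. With the block and without replicate 3 of the Sin3a knockdown, Zfp977 (0.43 ± 0.10, edgeR adjusted p = 0.0060) and Zfp952 (0.28 ± 0.10, adjusted p = 0.046) rose and Zfp871 (-0.47 ± 0.08, adjusted p = 0.00072) fell in Fam60a knockdown. In the same fit, Zfp977 rose (0.34 ± 0.12, adjusted p = 0.042) and Zfp976 fell (-0.41 ± 0.09, adjusted p = 0.0034) in Sin3a knockdown. The 2 described chromosome 9 genes, Zfp809 and Zfp810, share no window with another gene and had a median deviation of -0.06 in replicate 3, the smallest of all clusters.

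**Figure D4:**
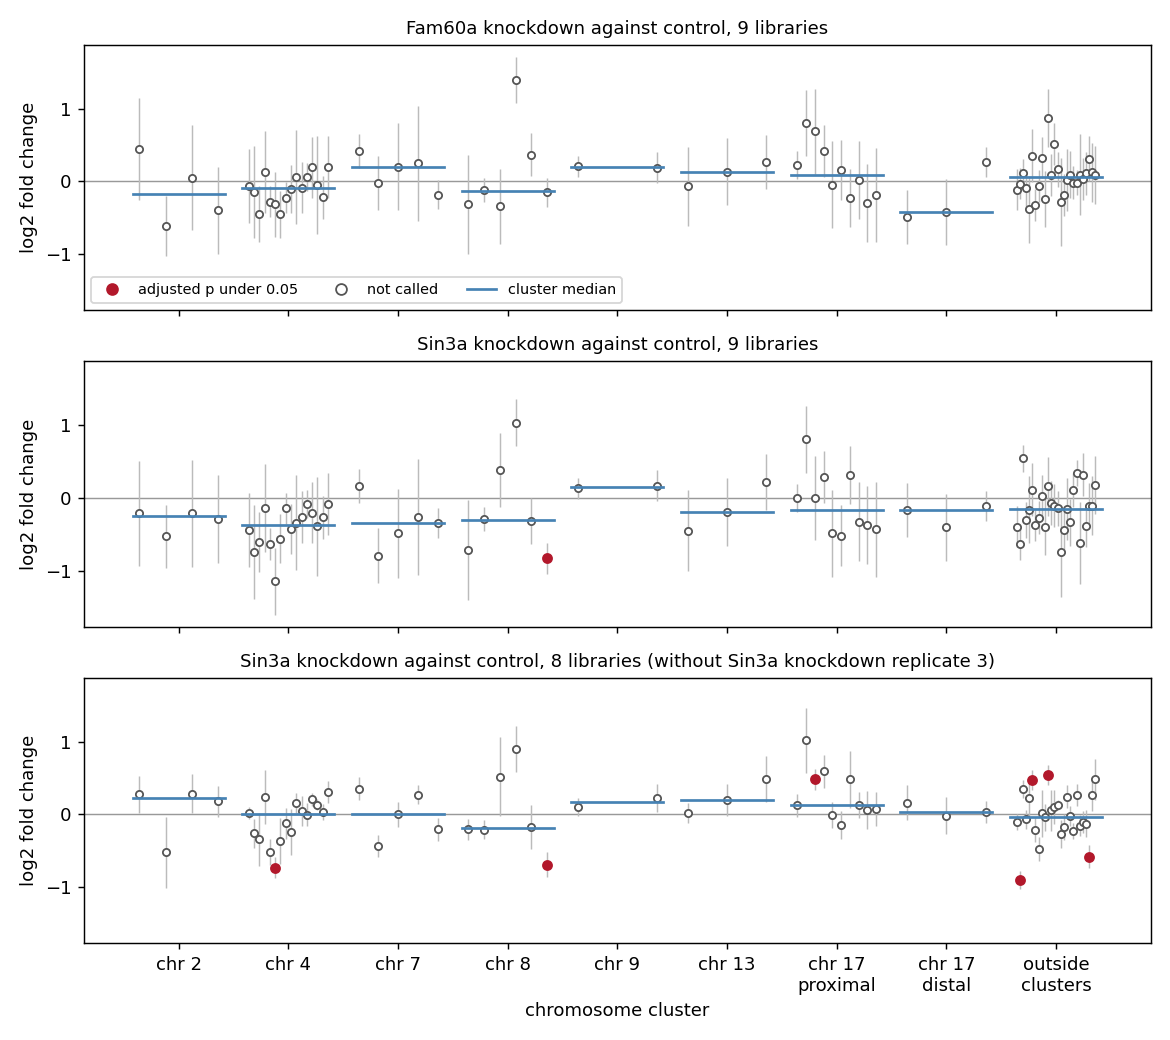
Log2 fold change of the 75 genes against control, in chromosome order within clusters, for Fam60a knockdown (top), Sin3a knockdown with 9 libraries (middle) and Sin3a knockdown without its replicate 3 (bottom); bars are standard errors, red points have an adjusted p under 0.05 and blue lines are cluster medians. With 9 libraries the Sin3a knockdown medians lie below 0 in every cluster but that of chromosome 9; without replicate 3 they run from -0.19 on chromosome 8 to 0.23 on chromosome 2, and 7 genes are called.

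Between the knockdowns, Fam60a over Sin3a, none of the 75 genes was called with 9 libraries by edgeR, where 3.06% of all genes were. An unadjusted p under 0.05 was reached by 2 of the 75 genes, where 18.1% of all tested genes reached it. DESeq2 called Zfp866 higher (8.66% of all genes, 5.04% higher). The median log2 difference was 0.26, against 0.01 for all genes, and it was -0.01 without Sin3a knockdown replicate 3. Without that library, Zfp865 (0.88 ± 0.13, adjusted p = 0.0039) and Zfp839 (0.90 ± 0.16, adjusted p = 0.0077) were higher in Fam60a knockdown, where 14.7% of all genes were called (8.49% higher). With 9 libraries these differences were 0.61 ± 0.22 (adjusted p = 0.187) and 0.42 ± 0.31 (adjusted p = 0.507). For Zfp869 the difference was 0.36 ± 0.31 (adjusted p = 0.572).

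The partners through which KRAB zinc finger proteins repress were read from a list of 34 genes, of which 33 were tested. In Fam60a knockdown none was called with 9 libraries by edgeR or DESeq2 (2.92% and 7.18% of all genes were), and the median log2 fold change was -0.07. Of the 33 partners 4 had an unadjusted p under 0.05 (15.7% of all tested genes did). In Sin3a knockdown Dnmt3b, a DNA methyltransferase, rose, with 345, 347 and 433 CPM, against 218, 220 and 296 CPM in control libraries (0.61 ± 0.16, adjusted p = 0.040), and the median of the list was 0.03. It was the only partner that edgeR called there with 9 libraries (3.91% of all genes were called higher and 6.28% lower). An unadjusted p under 0.05 was reached by 6 of the 33 partners (25.9% of all tested genes). Dnmt3b had 322, 303 and 368 CPM in Fam60a knockdown (0.43 ± 0.16, adjusted p = 0.202), and rose there with the replicate block (0.44 ± 0.09, adjusted p = 0.038). Trim28, the partner of the KRAB domain, had 386, 360 and 416 CPM in Fam60a knockdown, 377, 423 and 753 CPM in Sin3a knockdown and 422, 411 and 415 CPM in control libraries. It was not called, and Sin3a knockdown replicate 3 was the only library apart from the rest. Setdb1, the methyltransferase of the pathway, had log2 fold changes of -0.22 ± 0.14 and -0.35 ± 0.14 with 9 libraries (adjusted p = 0.526 and 0.138). Without Sin3a knockdown replicate 3 it fell in both, by 0.21 ± 0.06 (adjusted p = 0.042) and by 0.22 ± 0.07 (adjusted p = 0.046). Without that library 3 partners were higher (Atrx, Dnmt3b and Suv39h1) and 3 lower (Atf7ip2, Kdm1a and Setdb1) in Fam60a knockdown. In Sin3a knockdown 3 were higher (Chaf1b, Dnmt3b and Suv39h1) and 2 lower (Atf7ip and Setdb1). Suv39h1 rose in both, by 0.59 ± 0.10 (edgeR adjusted p = 0.0047) and by 0.66 ± 0.11 (adjusted p = 0.0035), larger changes than those of Setdb1. With 9 libraries Suv39h1 was not called (0.58 ± 0.24 and 0.41 ± 0.24, adjusted p = 0.268 and 0.321). Over all genes that fit called 9.16% higher and 7.77% lower in Fam60a knockdown, and 11% higher and 13.5% lower in Sin3a knockdown, so the counts of 33 partners are near or below the background.

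The other 273 tested genes with a Zfp symbol are set beside these for their counts and medians. In Fam60a knockdown 1 rose and 1 fell with 9 libraries (1.49% and 1.44% of all genes did), with a median log2 fold change of -0.05, against 0.01 in Zfp800 to Zfp999. In Sin3a knockdown 4 rose and 6 fell (3.91% and 6.28% of all genes did), with a median of -0.22, against -0.27. Without Sin3a knockdown replicate 3, 16 rose and 15 fell in Fam60a knockdown (9.16% and 7.77% of all genes), and 18 rose and 27 fell in Sin3a knockdown (11% and 13.5%), with a Sin3a knockdown median of -0.05, against 0.03. Whether these genes differ from Zfp800 to Zfp999 was not tested.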

How the data were processed

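The authors deposited 1 table of raw counts per library, whole reads per Ensembl gene without normalization. Libraries were made from isolated total RNA with a strand-specific TruSeq kit and sequenced as 50-base single reads, per the labels' protocols; the selection of RNA is not given in the sources used here. STAR 2.4.0j, Picard and featureCounts of Subread were used, per the submitters' processing notes, and duplicate reads had been removed, per the file headers. Build, annotation and the treatment of multiply mapping reads are not given in the sources used here. Removing duplicates limits high counts, and dropping multiply mapping reads would lower the counts of near-identical genes.

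Symbols, positions, exon length and GC content came from GENCODE M21 (GRCm38), matched by gene ID for 32937 of 37990 genes. Libraries whose titles name neither target were taken as the scrambled controls by elimination. Counts were fitted in R 4.3.3 with edgeR 4.0.16 (limma 3.58.1): filterByExpr, TMM, 1 robust quasi-likelihood model of 3 groups over 9 libraries, Benjamini-Hochberg over 14465 genes, calls at an adjusted p under 0.05. Every p comes from this model unless DESeq2 1.42.0, the replicate block or a left-out library is named. The block and the left-out libraries were separate edgeR fits. Each was adjusted over the genes it tested (14735 without Sin3a knockdown replicate 3). The scripts were tested on simulated data. Log CPM used a prior count of 2. Window sharing compared 50-base windows of all GENCODE transcripts. Finger and KRAB patterns were searched in translated coding sequence. Where a library had 0 reads, a bound used 3 reads.

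Replicate numbers paired the libraries: deviations from group means correlated with r of 0.178 to 0.622 in 9 same-number pairs, against -0.448 to 0.113 otherwise, across genes. Depth was 2607872 to 7674887 reads. Alternatives were other scalings, no filter, DESeq2, the compared libraries alone, the replicate block, a GC correction and leaving out each library. The block without Sin3a knockdown replicate 3 was added after seeing the data.

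Members and lists were chosen with earlier results of these data known. Named genes are those called, the most abundant and most changed of each cluster, those with known roles, the nearest to the read minimum and, of other lists, those called. Zfp804a carries a letter after its number and is no member. Tasor, on the partner list, was found only under its older symbol, Fam208a. Outside this rule, and chosen after their values were seen, are Zfp820, Zfp839, Zfp865, Zfp867, Zfp936, Zfp949, Zfp954, Zfp961, Zfp963, Zfp970, Zfp971, Zfp979, Zfp985, Zfp987 and Zfp992, and Zfp882, Zfp930, Zfp940, Zfp956, Zfp984 and Zfp995, which are named with the block and without Sin3a knockdown replicate 3.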

Additional observations from a re-analysis of the deposited data

How the results depend on the processing

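Counts of calls moved with the tool, the libraries left out and the replicate block; the cause was not tested. For Fam60a knockdown against control, 423 genes and 0 of the 75 zinc finger genes were called with 9 libraries. DESeq2 called 1174 and 1, the 6 compared libraries alone 1827 and 3, the replicate block 887 and 1, the GC correction 728 genes, GC correction and block together 1691 and 2, and the block without Sin3a knockdown replicate 3 gave 5842 and 19. Without a filter on low counts 406 genes and 1 zinc finger gene were called. Leaving out 1 library gave 11 to 2495 genes and 0 to 3 zinc finger genes. For Sin3a knockdown against control, 1475 genes and 1 zinc finger gene were called. DESeq2 called 2515 and 5, the 6 libraries alone 739 and 0, no filter 1385 and 0, the block 2164 and 2 and the GC correction 2118 and 4. GC correction and block gave 3331 and 6, and the block without replicate 3 gave 6975 and 21. Leaving out 1 library gave 521 to 3606 and 0 to 7. For Fam60a against Sin3a knockdown, 443 genes and 0 zinc finger genes were called. DESeq2 called 1296 and 1, the 6 libraries alone 0 genes, the block 672, the GC correction 821 and 1, GC correction and block 1565 and 3, and the block without replicate 3 gave 5321 and 13. Leaving out 1 library gave 48 to 2166 and 0 to 2. In the 9-library fit the block changed no other zinc finger call than that of Zfp869. In Sin3a knockdown the log2 fold change of Zfp820, 0.00 with 9 libraries, was -0.041 with upper-quartile scaling, -0.0068 with DESeq2 and -0.18 with the replicate block, and -0.39 to 0.48 when 1 library was left out. The other reversals came when 1 library was left out, with ranges of -0.17 to 0.47 for Zfp800, -0.58 to 0.17 for Zfp839 and -0.10 to 0.54 for Zfp867. With gaps of 0.5 Mb or 2 Mb there were 9 clusters in place of 8, and a minimum of 30 or 120 reads left 76 or 71 genes. Depth limits the 31 genes with under 10 reads in Sin3a knockdown replicate 3.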
